A study of Mus musculus with 19 samples.

Results

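The homeostatic microglia genes P2ry12, Tmem119, Cx3cr1, Csf1r, Aif1, Ly86, Fcgr3 and Itgam were followed in prefrontal cortex of 20-month-old mice on Illumina bead arrays. The list of 8 genes was chosen with earlier results of these data known, and every probe whose platform gene symbol was one of them was used. This gave 9 probes for 7 of the genes among the 25697 probes of the array, and 7 of those probes, for 6 genes, entered the tests over 14942 probes. No probe carried the symbol Csf1r in the platform annotation used here, so the receptor for colony-stimulating factor 1 was not analysed here.

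Microglia are the resident macrophages of the brain parenchyma. In healthy tissue they survey their surroundings with moving processes, and in that state they express a characteristic set of surface receptors, among them P2ry12, Tmem119 and Cx3cr1. Their survival depends on signalling through Csf1r. Around amyloid plaques microglia are known to lower this homeostatic set and to raise genes such as Trem2, Lpl and Gpnmb.

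The study crossed mice that lack 1 copy of Polb, the gene for DNA polymerase beta, with the 3xTgAD Alzheimer model. There were 5 wild-type arrays, 4 from Polb+/- mice, 6 from 3xTgAD mice with both Polb copies, and 4 from the 3xTgAD/Polb+/- cross. 3xTgAD mice carry APPswe, PS1M146V and tauP301L. All mice were female, and every group is labelled C57BL/6. The labels do not say whether the mice were littermates. As background, the APP and tau transgenes of the 3xTgAD line are driven by a neuronal Thy1 cassette, so microglia are not the cells that express them.

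The arrays detected between 13205 and 14396 probes each, at a detection p under 0.05. Levels are log2 intensities after background correction and quantile normalisation. Polb averaged 7.73 ± 0.17 (SD, n = 5) in wild type, 7.10 ± 0.16 (n = 4) in Polb+/-, 7.34 ± 0.46 (n = 6) in 3xTgAD and 6.997 ± 0.32 (n = 4) in 3xTgAD/Polb+/- arrays. The Polb difference between Polb+/- and wild type was -0.63 (SE 0.20, limma adjusted p = 1). The arrays labelled 3xTgAD replicates 4 and 6 read 6.89 and 6.63 for Polb, below every Polb+/- array, where the other 4 of that group read 7.53 to 7.79. Their Polb levels thus go against a label with both Polb copies, and whether the label is right was not tested. Without both, Fcgr3 in 3xTgAD minus Polb+/- was -0.93 (adjusted p = 0.0544) and Ly86 was -0.93 (adjusted p = 0.0725). The source label spells the age in 2 ways, "20- month" on 11 arrays and "20 month" on 8, and each genotype holds both spellings. What the spelling stands for is not given. The "20 month" arrays detected 13205 to 13562 probes and the "20- month" arrays 13876 to 14396, without overlap. Adjusting for genotype, 31.9% of the 14942 probes differed between the spellings at an adjusted p under 0.05. Values within each spelling are given beside a number of the member differences below, not all of them. 3xTgAD replicates 2 and 5 carry the same code in the column heads of the deposited table. After genotype and spelling means were removed, their levels correlated at r = 0.109 over the tested probes, against -0.395 to -0.0747 for the other 14 pairs of that group. These 2 arrays carry different spellings. Whether both arrays come from 1 animal cannot be told from the labels, and n = 6 counts them separately. With both averaged as 1 array, Ly86 in 3xTgAD minus wild type was -0.66 (adjusted p = 0.854), and 3xTgAD minus Polb+/- was -0.87 for Fcgr3 (adjusted p = 0.133) and -0.85 for Ly86 (adjusted p = 0.163).

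The promoter windows of the 3 genes with the largest genotype differences below are shown first. Capitals mark GAGGAA read on either strand (here in its reverse form), which is part of the motif bound by the myeloid factor PU.1. Each runs 5′ to 3′ from 250 bases before to 50 bases after the start in RefSeq's GRCm38.p6 annotation. Ly86 lies at chr13:37345095-37345394 on the plus strand, Fcgr3 at chr1:171059354-171059653 on the minus strand and Aif1 at chr17:35176003-35176302 on the minus strand.
Ly86: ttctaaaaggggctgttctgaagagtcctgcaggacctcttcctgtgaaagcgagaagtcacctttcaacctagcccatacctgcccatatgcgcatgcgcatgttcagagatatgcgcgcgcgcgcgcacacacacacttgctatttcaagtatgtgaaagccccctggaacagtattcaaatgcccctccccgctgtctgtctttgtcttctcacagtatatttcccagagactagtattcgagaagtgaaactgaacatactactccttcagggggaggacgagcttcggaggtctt
Fcgr3: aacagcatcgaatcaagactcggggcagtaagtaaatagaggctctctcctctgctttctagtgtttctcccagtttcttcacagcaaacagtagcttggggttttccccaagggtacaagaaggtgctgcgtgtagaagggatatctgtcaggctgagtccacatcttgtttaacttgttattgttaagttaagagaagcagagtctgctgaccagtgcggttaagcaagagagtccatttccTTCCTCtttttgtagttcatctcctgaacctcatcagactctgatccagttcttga
Aif1: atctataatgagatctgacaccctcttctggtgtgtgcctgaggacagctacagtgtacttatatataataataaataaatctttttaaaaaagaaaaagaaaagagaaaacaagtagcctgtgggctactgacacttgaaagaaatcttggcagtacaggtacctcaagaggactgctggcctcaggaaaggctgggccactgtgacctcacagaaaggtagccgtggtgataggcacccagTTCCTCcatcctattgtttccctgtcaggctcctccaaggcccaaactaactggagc

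In the Fcgr3 and Aif1 windows GAGGAA begins 6 and 7 bases upstream of the start, and the Ly86 window holds no GAGGAA. Shorter parts of the motif were not searched. Over the 6 member genes whose windows were read, GAGGAA was found in 3, Aif1, Fcgr3 and Itgam, and it occurs in 28.28% of all 32851 RefSeq windows of this length. Fcgr3 has 2 such windows in the table, which overlap, and 1 is shown. The longer GAGGAAGT, which contains both GAGGAA and GGAAGT, was found in 3.2% of all windows and in none of the 6 genes. GGAAGT alone was found in 23.77% of windows and in P2ry12. The composite element of PU.1 and interferon regulatory factors, searched on both strands, was found in 2.72% and in none of the 6.

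Detection divided the probes sharply. The probes for P2ry12, Tmem119, Cx3cr1, Ly86 and Fcgr3 and 2 of the 3 Aif1 probes were detected on all 19 arrays, as were 45.5% of the 25697 probes. The other Aif1 probe, ILMN_1218123, was detected on 0 of 19 arrays. Itgam, the alpha chain of complement receptor 3, was detected on 1 of 19, Polb+/- replicate 1, at 5.21. Neither of these probes was tested. P2ry12 was the detected member closest to background, with a detection p of up to 0.0464, on replicate 3 of the cross, while for the other 6 detected probes the detection p was 0 on every array.

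**Figure D1:**
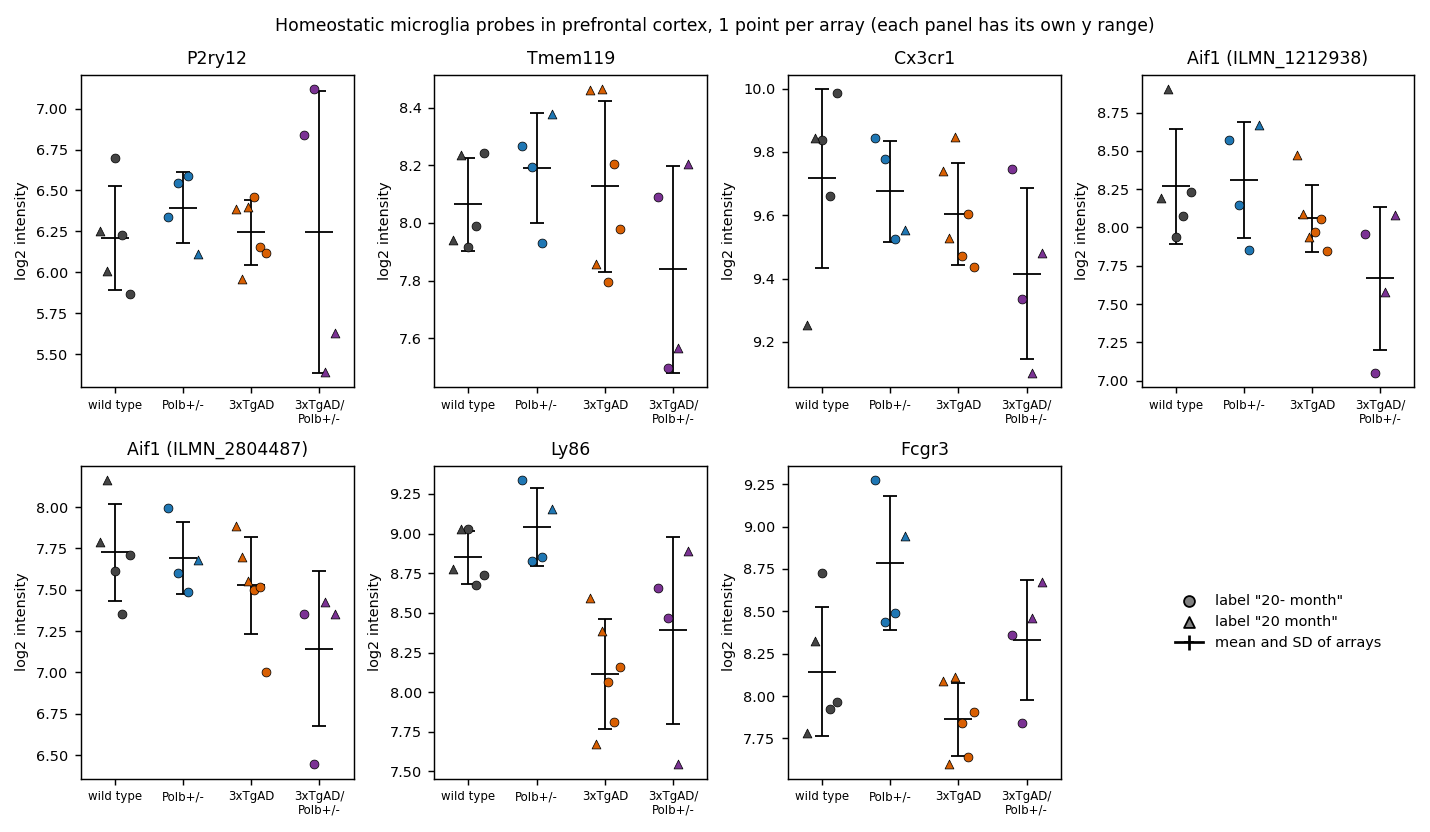
Log2 intensity of the 7 tested probes on every array, by genotype, with a separate y range in each panel. Points are arrays, shapes give the spelling of the age label, and bars give the mean and SD. Ly86 and Fcgr3 sit lowest in 3xTgAD, both Aif1 probes sit lowest in 3xTgAD/Polb+/-, and the 4 P2ry12 levels of 3xTgAD/Polb+/- fall into a high and a low pair.

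Ly86 and Fcgr3 were the members with the largest differences, and both had their lowest group mean in 3xTgAD and their highest in Polb+/-. Ly86 encodes MD-1, the secreted partner that brings the Toll-like receptor homologue Cd180 to the cell surface. Its log2 levels were 8.78, 9.03, 9.03, 8.68 and 8.74 in wild type and 9.34, 8.83, 8.85 and 9.16 in Polb+/-. In 3xTgAD the lowest was 7.67, the median 8.11 and the highest 8.59. In 3xTgAD/Polb+/- they were 8.65, 8.47, 7.54 and 8.89. Every 3xTgAD array lay below every wild-type and every Polb+/- array, while the cross overlapped all other groups and held the lowest array of all, replicate 3. In whole tissue, fewer microglia and less RNA per microglial cell cannot be told apart. The means were 8.85 ± 0.17 in wild type (n = 5), 9.04 ± 0.25 in Polb+/- (n = 4), 8.11 ± 0.34 in 3xTgAD (n = 6) and 8.39 ± 0.59 in the cross (n = 4).

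For Ly86 the difference between 3xTgAD and wild type was -0.74 (SE 0.20), a fold of 0.600, with an unadjusted p of 0.00155 and a limma adjusted p of 0.492 over 14942 probes. In that comparison 0% of probes passed the adjusted threshold of 0.05, 5.81% had an unadjusted p under 0.05, and 0.843% had groups without overlap. The same difference was -0.81 among "20- month" arrays (3 against 3) and -0.69 among "20 month" arrays (3 against 2). As the 2 genotypes did not overlap over all arrays, they could not overlap within either spelling. Against Polb+/-, 3xTgAD differed by -0.93 (SE 0.21, adjusted p = 0.071). The cross differed from Polb+/- by -0.65 (SE 0.23, adjusted p = 0.282) and from wild type by -0.46 (95% interval -0.93 to 0.00216). Without replicate 3 of the cross these differences were -0.37 and -0.18. The difference from wild type was -0.26 among "20- month" arrays and -0.69 among "20 month" arrays. The order of the means was thus Polb+/-, wild type, the cross and 3xTgAD, and none of the neighbours in it differed at the adjusted threshold.

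Fcgr3 encodes the low-affinity Fc receptor for IgG that signals through the Fc receptor gamma chain. Its levels were 7.78, 8.32, 8.72, 7.92 and 7.97 in wild type and 9.28, 8.44, 8.49 and 8.94 in Polb+/-. In 3xTgAD the lowest was 7.60, the median 7.87 and the highest 8.11. In the cross they were 8.36, 7.84, 8.46 and 8.67. The Polb+/- and 3xTgAD arrays did not overlap, and wild type overlapped both. The group means were 8.79 ± 0.40 in Polb+/- (n = 4), 8.33 ± 0.35 in the cross (n = 4), 8.14 ± 0.38 in wild type (n = 5) and 7.86 ± 0.22 in 3xTgAD (n = 6).

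Between the single mutants Fcgr3 differed by -0.92 (3xTgAD minus Polb+/-, SE 0.20, fold 0.527), with an unadjusted p of 0.000176. Its adjusted p was 0.0502, just outside the threshold of 0.05 that 0.308% of all probes met in this comparison. Of the 7 member probes, Fcgr3 and Ly86 had groups without overlap here, against 3.9% of all probes. With the spelling as a block the Fcgr3 difference was -0.96 with an adjusted p of 0.0416, where 0.408% of probes were called. Over the alternatives that did not leave out just 1 array the adjusted p ranged from 0.0321 to 0.6. Against wild type, Polb+/- was 0.64 higher (SE 0.21, adjusted p = 1) in a comparison where 0% of probes passed and 3.21% had an unadjusted p under 0.05. The cross stood 0.47 above 3xTgAD (SE 0.20, adjusted p = 0.543), where again 0% passed and 8.87% had an unadjusted p under 0.05.

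Markers of other tissue were also highest in the Polb+/- group. All 8 tested striatal neuron genes had higher means in Polb+/- than in wild type (median difference 1.06), and all 8 had lower means in 3xTgAD than in Polb+/- (median -1.55). None of the 8 passed the adjusted threshold in either comparison. The mean level of the striatal list ran from 10.4 to 11.1 in Polb+/-, 8.52 to 10.6 in wild type, 8.85 to 10.8 in 3xTgAD and 8.70 to 9.47 in the cross. The 2 3xTgAD arrays with low Polb, replicates 4 and 6, read 10.8 and 10.4, and the other 4 read 8.85 to 8.90. Tac1, the substance P precursor of striatal projection neurons, was 1.47 higher in Polb+/- than in wild type (SE 0.52, adjusted p = 1). The 3 tested choroid plexus genes had higher means in Polb+/- than in wild type as well, with a median difference of 1.65. With the striatal mean of each array as a covariate, the difference between the single mutants was -0.81 for Ly86 (adjusted p = 0.929) and -0.90 for Fcgr3 (adjusted p = 0.6). The cortical neuron markers Slc17a7 and Tbr1 were detected in every group. In Polb+/- minus wild type they differed by -0.27 (SE 0.22) and -0.10 (SE 0.15), and neither passed the adjusted threshold. The mean level of the 5 tested cortical neuron genes had a median of 9.46 in Polb+/-, 9.67 in wild type, 9.66 in 3xTgAD and 9.59 in the cross. The ranges of the groups overlapped.

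**Figure D2:**
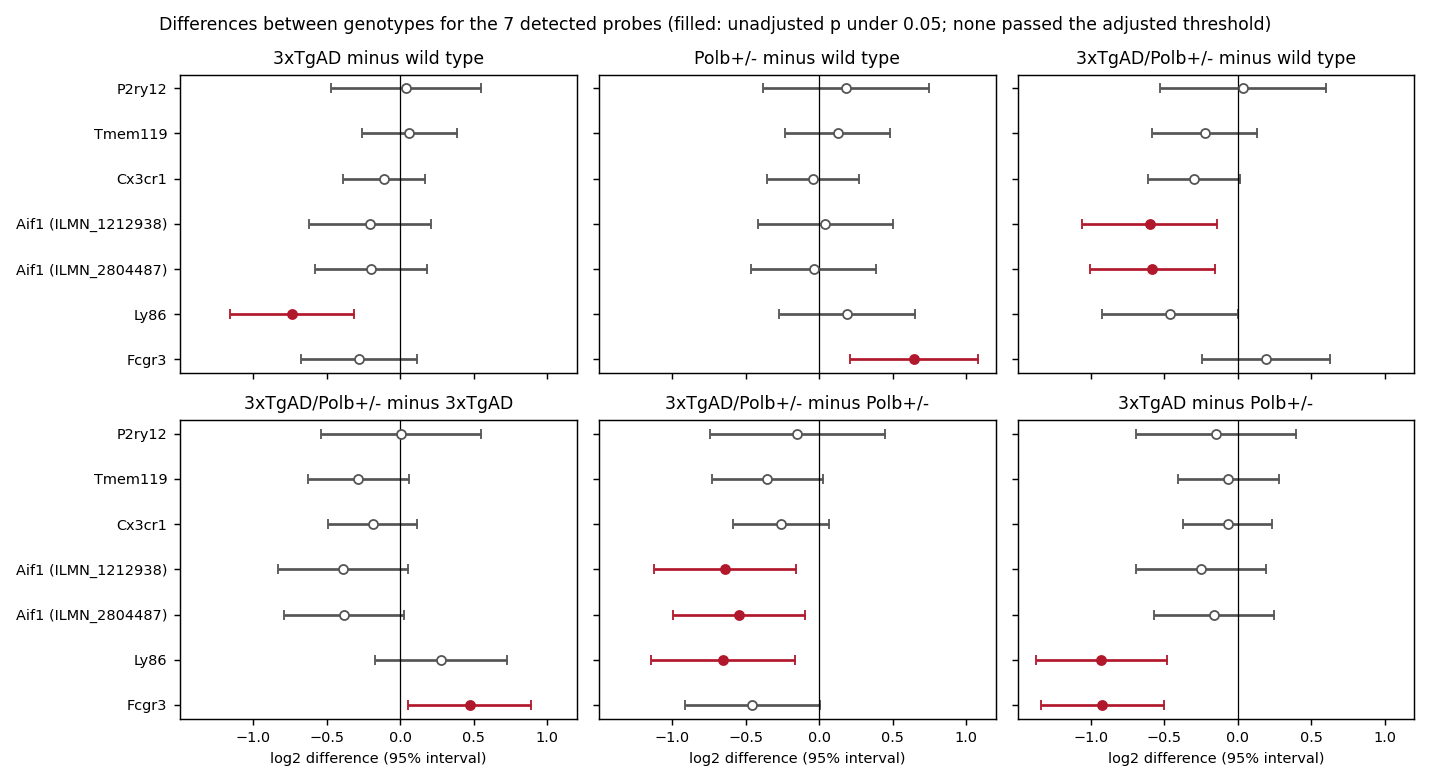
Log2 difference and 95% interval of each tested probe in the 6 comparisons between genotypes, from the fit to all 19 arrays. Filled red points have an unadjusted p under 0.05. No point passed the adjusted threshold, and in both comparisons against Polb+/- all 7 points lie below 0.

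Aif1 encodes Iba1, the calcium-binding protein of the cytoplasm whose antibody is the usual microglial stain. Its brighter probe ILMN_1212938 read 8.19, 8.91, 7.94, 8.07 and 8.23 in wild type and 8.57, 8.15, 7.85 and 8.67 in Polb+/-. In 3xTgAD the lowest was 7.84, the median 8.01 and the highest 8.47. In the cross the levels were 7.96, 7.05, 7.58 and 8.08. The groups overlapped, and the cross held the lowest array, replicate 2. The second detected probe, ILMN_2804487, read 7.79, 8.16, 7.61, 7.36 and 7.71 in wild type and 7.996, 7.60, 7.49 and 7.68 in Polb+/-. In 3xTgAD its lowest was 7.004, the median 7.54 and the highest 7.89, and in the cross it read 7.35, 6.44, 7.43 and 7.35. On this probe every array of the cross lay below every Polb+/- array.

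Both Aif1 probes had their lowest group mean in the cross. The difference from wild type was -0.60 (SE 0.22, adjusted p = 0.284) on the first probe and -0.58 (SE 0.20, adjusted p = 0.271) on the second. In that comparison 0.00669% of probes passed and 12.7% had an unadjusted p under 0.05. Against Polb+/- the differences were -0.64 (SE 0.23, adjusted p = 0.284) and -0.55 (SE 0.21, adjusted p = 0.331), where 0.0134% passed, 11.6% had an unadjusted p under 0.05 and 5.01% had groups without overlap. Replicate 2 of the cross carried a large share of this. Without it the differences from wild type were -0.40 and -0.35, and those from Polb+/- were -0.44 and -0.31. With all arrays and the spelling as a block, the differences from wild type were -0.64 (limma adjusted p = 0.0961) and -0.62 (adjusted p = 0.0877). Those from Polb+/- were -0.73 (adjusted p = 0.106) and -0.63 (adjusted p = 0.111). In these 2 comparisons the block called 49 and 33 of the 14942 probes. Within each spelling both probes stayed lower in the cross than in wild type. The differences were -0.58 and -0.72 on the first probe and -0.66 and -0.59 on the second. 3xTgAD differed from wild type by -0.21 (95% interval -0.62 to 0.21) and -0.20 (-0.58 to 0.18), so differences of that size in either direction were not resolved.

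P2ry12, the purinergic receptor through which microglial processes find ATP and ADP, had nearly equal group means and the widest spread in the cross. Its levels were 6.25, 6.01, 6.70, 6.23 and 5.87 in wild type, and 6.33, 6.55, 6.59 and 6.11 in Polb+/-. In 3xTgAD the lowest was 5.96, the median 6.27 and the highest 6.46. The cross read 6.84, 7.12, 5.39 and 5.63, which included the highest and the lowest of all 19 arrays. The group means were 6.21 ± 0.32 (n = 5), 6.39 ± 0.22 (n = 4), 6.25 ± 0.20 (n = 6) and 6.25 ± 0.86 (n = 4), and the largest pairwise difference was 0.18 (Polb+/- minus wild type, SE 0.27, adjusted p = 1).

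The 2 high P2ry12 arrays of the cross carry the "20- month" spelling and the 2 low ones "20 month". The cross stood 0.74 above 3xTgAD among "20- month" arrays and 0.74 below it (-0.74) among "20 month" arrays. Each spelling holds 2 arrays of the cross and 3 of 3xTgAD. The difference between these differences was -1.47 (limma adjusted p = 0.0284, a threshold that 2.82% of probes met). Against wild type the corresponding values were 0.72 and -0.62, and their difference was -1.34 (adjusted p = 0.0593, with 0.348% of probes called). P2ry12 is also the detected member nearest to background, and each of these values rests on 2 arrays of the cross per spelling. Every "20 month" array also detected fewer probes than any "20- month" array. Whether the spelling marks a processing step was not tested.

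Tmem119 and Cx3cr1 overlapped among all genotypes. Tmem119 is a membrane protein used to tell resident microglia from blood-derived macrophages. It read 7.94, 8.24, 7.92, 7.99 and 8.24 in wild type, 8.27, 8.19, 7.93 and 8.38 in Polb+/-, and 8.09, 7.49, 7.57 and 8.20 in the cross. In 3xTgAD its lowest was 7.79, the median 8.09 and the highest 8.47. All 4 groups overlapped, and the largest difference was -0.35 (cross minus Polb+/-, 95% interval -0.73 to 0.0235). For 3xTgAD minus wild type the difference was 0.06, with an interval of -0.26 to 0.38, and its sign turned between the spellings, at -0.06 among "20- month" and 0.17 among "20 month" arrays.

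Cx3cr1, the receptor for the neuronal chemokine fractalkine, read 9.25, 9.84, 9.84, 9.66 and 9.99 in wild type and 9.84, 9.78, 9.52 and 9.55 in Polb+/-. In 3xTgAD its lowest was 9.44, the median 9.57 and the highest 9.85, and in the cross it read 9.75, 9.33, 9.10 and 9.48. The groups overlapped. The means ran from 9.72 ± 0.28 in wild type (n = 5) to 9.42 ± 0.27 in the cross (n = 4), a difference of -0.30 (SE 0.15, adjusted p = 0.411) that was -0.20 without replicate 3 of the cross. Between 3xTgAD and wild type it was -0.11 (95% interval -0.39 to 0.17), and its sign turned between the spellings, at -0.32 among "20- month" and 0.16 among "20 month" arrays.

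Over the 7 tested probes, 0 passed the adjusted threshold in any of the 6 comparisons between genotypes or in the interaction of the transgenes with Polb loss, where 0% of all probes passed and 3.13% had an unadjusted p under 0.05. In the interaction Tmem119 had the smallest p, at -0.41 (SE 0.24, adjusted p = 1). In 3xTgAD minus wild type, 2 were higher and 5 lower, with a median of -0.20 where the median of all probes was near 0 and 50% of probes were lower. In the cross minus wild type, 2 were higher and 5 lower (median -0.30, all probes 0.02, 45.5% lower), and 0 had groups without overlap, against 2.72% of all probes. In Polb+/- minus wild type, 5 were higher and 2 lower (median 0.13, 50.8% of all probes lower), and 0 had groups without overlap, against 1.57%. In the cross minus 3xTgAD, 3 were higher and 4 lower (median -0.19, 48.4% of all probes lower), again with 0 without overlap, against 0.937%. In the cross minus Polb+/-, all 7 were lower (median -0.45, all probes 0.03, 43.7% lower), and 3 had an unadjusted p under 0.05, against 11.6% of all probes. These 3 probes are Ly86 and both Aif1 probes, so they stand for 2 genes. In 3xTgAD minus Polb+/-, all 7 were lower (median -0.16, all probes 0.00, 49% lower), and 2 had an unadjusted p under 0.05, against 10.9% of all probes. These comparisons against Polb+/- share the Polb+/- arrays, and not every sign held within a spelling. In 3xTgAD minus Polb+/-, P2ry12, Cx3cr1 and Aif1 ILMN_2804487 were 0.14, 0.15 and 0.03 among "20 month" arrays, which hold 1 Polb+/- array. In the cross minus Polb+/-, P2ry12 was 0.49 among "20- month" arrays.

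**Figure D3:**
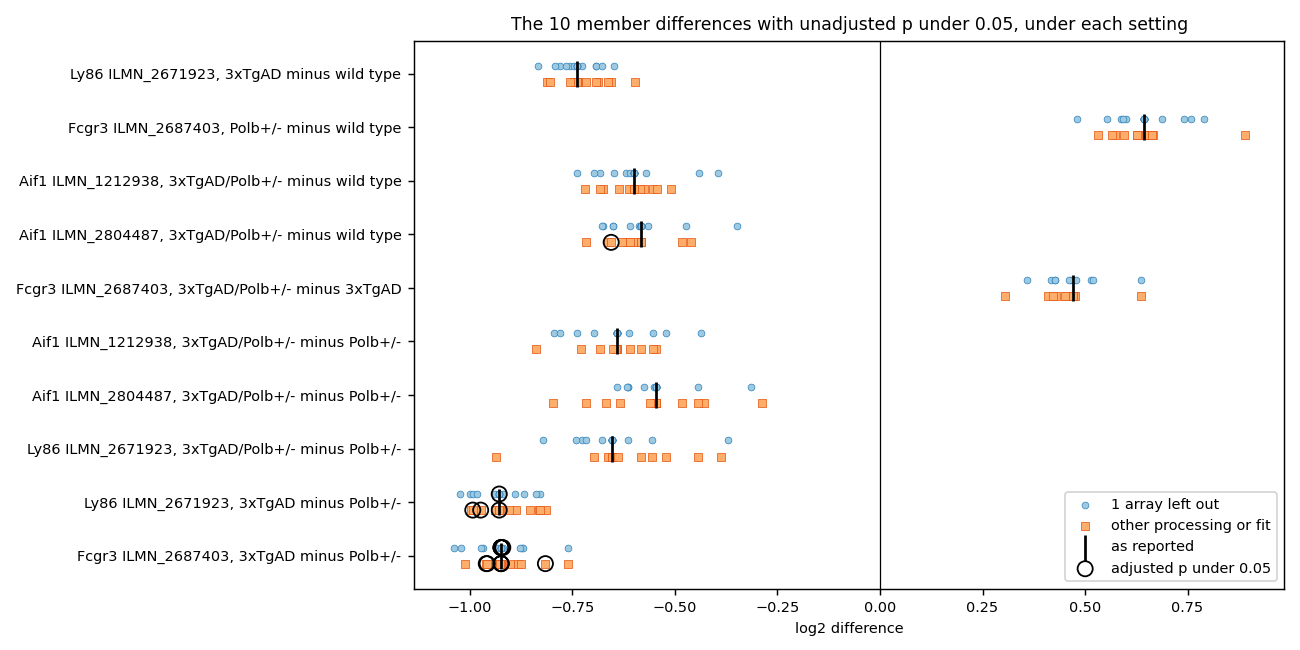
The 10 member differences with an unadjusted p under 0.05, recomputed with 1 array left out (circles, 19 fits) and with other processing or another fit (squares). Vertical strokes mark the reported value and open rings mark an adjusted p under 0.05. All 10 stay on their side of 0, and all but 1 of the 16 passing values are Ly86 or Fcgr3 between the single mutants.

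**Figure D4:**
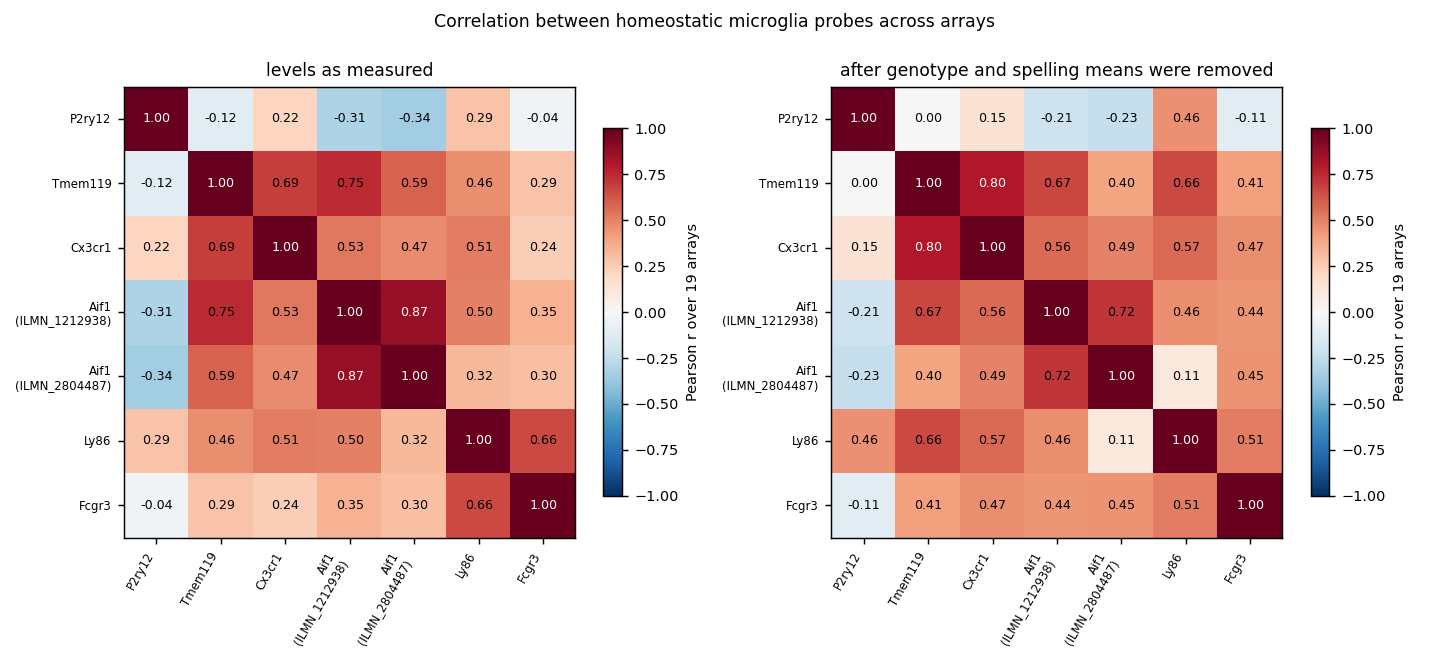
Pearson correlation between the 7 tested probes over the 19 arrays, for the levels as measured and after genotype and spelling means were removed. Tmem119, Cx3cr1 and the Aif1 probes correlate positively with each other, and P2ry12 stays between -0.34 and 0.46 with every other probe.

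Across the 19 arrays, most pairs of member probes correlated positively. Pairs of other probes were not computed, so whether this is particular to the members was not tested. Both detected Aif1 probes are counted in these pairs. Of the 21 pairs of probes, 17 had a correlation above 0, with a median r of 0.349 and a range from -0.344 to 0.872. After genotype and spelling means were removed, 18 were above 0 and the median was 0.456. The 2 detected Aif1 probes, which share a gene symbol, gave the highest value as measured, 0.872. Tmem119 and Cx3cr1 correlated at 0.695, and at 0.803 after the means were removed. Ly86 and Fcgr3 correlated at 0.663. P2ry12 correlated at -0.344 and -0.306 with the 2 Aif1 probes. These values are descriptions over 19 arrays that share RNA quality, dissection and normalisation within each array.

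The genes most like the mean of the members' standardised levels over the 19 arrays were Tmem100 (r = 0.829), Hexa (0.806), Slc46a1 (0.801), Sema5a (0.793) and Atl3 (0.781). Hexa encodes the alpha subunit of the lysosomal hexosaminidase. After genotype and spelling means were removed, the closest were Synj2 (0.881), Siglech (0.839), Hdhd2 (0.837), Napa (0.834) and Aldh1l1 (0.833). Siglech is itself a microglial surface lectin, and Aldh1l1 is an astrocyte enzyme.

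Other genes of the homeostatic programme gave medians close to 0. Of 20 listed, 15 were tested, and their median difference ran from -0.11 to 0.09 over the 6 comparisons, with 0 called in either direction. Mertk, a receptor for the uptake of apoptotic cells, had a mean of 9.82 in 3xTgAD and 9.84 in the cross against 9.43 in wild type, differences of 0.39 (SE 0.10, adjusted p = 0.375) and 0.41 (SE 0.11, adjusted p = 0.174). Its 3xTgAD arrays ran from 9.63 to 10.05 and its wild-type arrays from 9.16 to 9.59, without overlap. Crybb1, a crystallin expressed by microglia, was -0.73 in the cross minus Polb+/- (SE 0.28, adjusted p = 0.325).

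Of 12 listed ligands and partners of the members, 10 were tested and 0 were called. The Csf1r ligand Il34 differed by 0.06 between 3xTgAD and wild type (SE 0.12, adjusted p = 0.964), and the other ligand, Csf1, by -0.25 (SE 0.22, adjusted p = 0.926). Csf1 was 0.46 in the cross minus 3xTgAD (SE 0.23, adjusted p = 0.572). Cx3cl1, the Cx3cr1 ligand fractalkine, differed by 0.01 (SE 0.11, adjusted p = 0.993). Itgb2, the beta chain that pairs with Itgam, differed by 0.16 (SE 0.20, adjusted p = 0.945). Tyrobp, the adaptor of Trem2, was -0.61 in the cross minus Polb+/- (SE 0.28, adjusted p = 0.414). Cd180, the partner of Ly86, did not pass the detection filter and was detected on 3 arrays.

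Fcer1g, the gamma chain through which Fcgr3 signals, was detected on 17 of 19 arrays. It read 4.54 on wild-type replicate 3 and 4.52 on Polb+/- replicate 1, and between 8.11 and 10.5 on the 17 others. These 2 arrays are also the ones with the highest Fcgr3 level of their groups, 8.72 and 9.28. The probe sequences were not used here, so whether the Fcer1g or Fcgr3 probe matches the RNA of these 2 arrays as it does that of the others was not tested, and their levels there may not be comparable. With both arrays left out, an alternative chosen after these values were seen, Fcgr3 in 3xTgAD minus Polb+/- was -0.76 with an adjusted p of 0.141, and in Polb+/- minus wild type it was 0.63.

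Transcription factors of the microglial lineage were mostly near or below detection, with 4 of 8 tested and 0 called. Sall1, a factor of microglial identity that other brain cells also express, was 0.40 higher in the cross than in wild type (SE 0.10, adjusted p = 0.159) and 0.45 higher than in Polb+/- (SE 0.11, adjusted p = 0.109). Irf8 differed by -0.01 between 3xTgAD and wild type (SE 0.18, adjusted p = 0.997).

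The plaque-associated genes had a median near 0 in each comparison, between -0.03 and 0.08, with 15 of 18 tested and 0 called. Trem2, the lipid receptor required for the plaque response, was -0.59 in the cross minus Polb+/- (SE 0.19, adjusted p = 0.227) and -0.19 in 3xTgAD minus wild type (SE 0.17, adjusted p = 0.926). Lpl, lipoprotein lipase, was -0.84 in the cross minus Polb+/- (SE 0.23, adjusted p = 0.166). Gpnmb, a lysosomal glycoprotein of phagocytes, was -0.68 in 3xTgAD minus wild type (SE 0.34, adjusted p = 0.876) and 1.03 in the cross minus 3xTgAD (SE 0.37, adjusted p = 0.491).

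**Figure D5:**
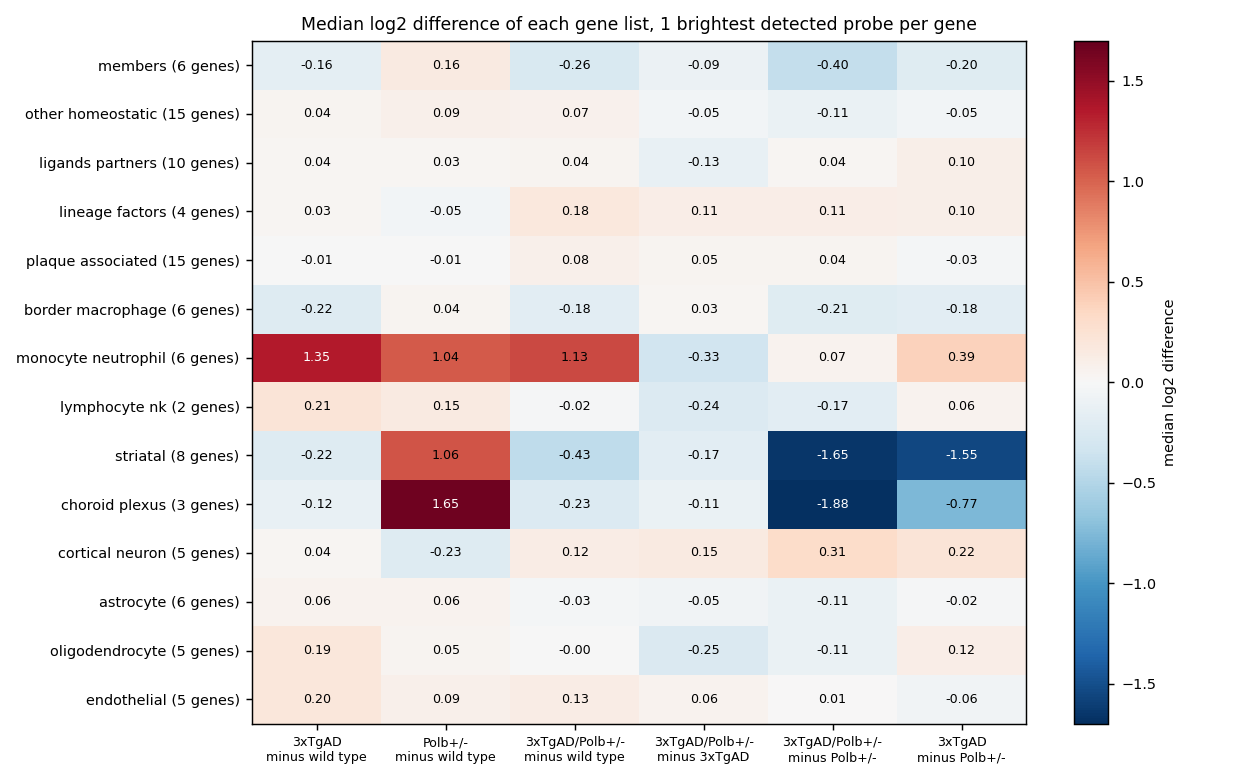
Median log2 difference of the members and of 13 other gene lists in the 6 comparisons, with 1 probe per gene. The members have their lowest median, -0.40, in 3xTgAD/Polb+/- minus Polb+/-, and the monocyte and neutrophil, striatal and choroid plexus lists have the largest medians.

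Myeloid cells other than microglia could add to the members, since Fcgr3, Itgam, Ly86 and Aif1 are expressed by them too. Of 9 monocyte and neutrophil genes, 6 were tested, and all 6 had higher means than wild type in each of the 3 mutant groups. The median differences were 1.35 in 3xTgAD, 1.04 in Polb+/- and 1.13 in the cross, and 0 of the 6 passed the adjusted threshold. These 3 comparisons share the wild-type arrays. The mean level of this list ran from 5.68 to 6.65 in wild type, 5.97 to 8.21 in Polb+/-, 5.44 to 8.14 in 3xTgAD and 6.06 to 8.25 in the cross. Among "20 month" arrays it was 5.68 and 5.81 in wild type and 7.35 to 8.25 in the mutant groups. Among "20- month" arrays wild type ran from 5.91 to 6.65 and overlapped each mutant group. S100a9, a calcium-binding protein of neutrophils, was 1.74 higher in 3xTgAD than in wild type (SE 0.64, adjusted p = 0.729), and Ngp, a granule protein, was 1.47 higher (SE 0.41, adjusted p = 0.529). Ccr2, the chemokine receptor of monocytes, was detected on 0 of 19 arrays. The part of these cells in the member differences was not tested directly. With the list's mean as a covariate the Ly86 difference between 3xTgAD and wild type was -0.60 (adjusted p = 0.551).

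Of 7 border macrophage genes, 6 were tested and 0 were called. Their median difference was -0.22 in 3xTgAD minus wild type, with 5 of 6 lower, and their mean level ran from 5.69 to 5.85 in 3xTgAD and from 5.88 to 6.11 in wild type, without overlap. Ms4a7, a membrane protein of these macrophages, was -0.41 (SE 0.14, adjusted p = 0.675). Cd163, their scavenger receptor, was -0.44 in 3xTgAD minus Polb+/- (SE 0.16, adjusted p = 0.28), and F13a1 was -0.48 (SE 0.16, adjusted p = 0.247). Cd163 was detected on only 5 of 19 arrays, so its difference lies near background, while F13a1 was detected on all 19. Pf4, which also enters the list mean, was detected on 5. The direction of Cd163 and F13a1 matches that of Ly86 and Fcgr3 in the same comparison, and their part in it was not tested. Of 9 lymphocyte and natural killer genes, 2 were tested, and their mean level stayed between 4.93 and 5.82 on every array. The astrocyte, oligodendrocyte and endothelial lists had median differences between -0.25 and 0.20.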

How the data were processed

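Total RNA from prefrontal cortex was measured on 19 Illumina bead arrays, 1 per sample. The deposited intensity values are not normalised, per the file headers, and each has a detection p-value, per the file headers. GenomeStudio 1.9.0 is named in the submitters' processing notes. The deposited value table holds a score, the z score within each array of the log10 intensity, as the authors' own intensities reproduce it to within 5e-10. Genes were named from the platform annotation (23978 probes with 1 symbol, 0 with several, 1719 with none). No pair of arrays held identical values.

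Intensities were corrected and quantile-normalised on the log2 scale with neqc (limma 3.58.1 in R 4.3.3, offset 16). Probes with a detection p under 0.05 on at least 4 arrays were kept (14942). A limma model with 1 mean per genotype was fitted to all kept probes, with empirical Bayes variances (15 residual degrees of freedom) and Benjamini-Hochberg adjustment over 14942 probes. All p-values are two-sided, and every adjusted p printed comes from limma. Nothing in the labels says beyond the replicate numbers that arrays are separate animals, so p-values measure the spread between these arrays, whose number limits the precision. On simulated data for 3xTgAD minus wild type over 14942 probes, 44% of probes set to a log2 difference of 0.5 were called, 88% at 1 and 100% at 2. The changed probes were drawn at random from all 14942 and given independent noise, with no variation shared within arrays. These rates were not computed for the member probes and may be too high for them. In the measured data Ly86 at -0.74 was not called in this comparison.

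Alternatives changed the background correction, normalisation, detection filter, probes per gene, spelling of the age, replicate block, covariates and arrays used. All 8 members were described with every probe, and from each other gene list the genes with the smallest unadjusted p and a few preset genes were named. Members and lists were chosen with earlier results of these data known.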

Additional observations from a re-analysis of the deposited data

Results flagged for a closer look

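The Aif1 probe ILMN_2804487 read 6.44 on 3xTgAD/Polb+/- replicate 2, apart from the other 3 arrays of its group, of which the nearest read 7.35. The gap was 0.921 of the group's range, above the Dixon critical value of 0.829 for 4 samples. This was the only one of 28 groups tested to stand out so, and chance marks about 1 in 20. The other detected Aif1 probe was lowest on the same array, at 7.05.

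For P2ry12 the difference between 3xTgAD/Polb+/- and 3xTgAD had opposite signs under the 2 spellings of the age label, 0.74 and -0.74, and the change between them was -1.47 (limma adjusted p = 0.0284). Against wild type the differences were 0.72 and -0.62, and the change was -1.34 (limma adjusted p = 0.0593).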

How the results depend on the processing

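The 10 member differences with an unadjusted p under 0.05 kept their direction under each of the 37 alternatives that gave them a value. Aif1 ILMN_2804487 had 36, as it has none with 1 probe per gene. The 10 cover Ly86, Fcgr3 and Aif1 and were picked by their p in these same arrays, so a kept direction was likely beforehand. Several other member differences changed sign in some alternatives, among them P2ry12 in the cross minus 3xTgAD. Of the 368 recomputed values of the 10, 16 passed the adjusted threshold that the reported fit did not reach. The cause was not tested. Between 3xTgAD and Polb+/-, 1 member (Fcgr3) was called without background correction, with 1 probe per gene, with the spelling as a block and with trended robust variances, where 0.315%, 0.37%, 0.408% and 0.335% of all probes were called. In the same comparison 1 (Ly86) was called within the "20- month" arrays (0.328% of all probes), and 2 when only those 2 groups were fitted (0.79%). Leaving out 1 array gave 0 to 2 called members there, with Fcgr3 passing without wild-type replicate 1 or 3, 3xTgAD replicate 4, or replicate 2 or 3 of the cross, and Ly86 without replicate 3 of the cross. It gave 0 in every other comparison. For 3xTgAD/Polb+/- minus wild type, 1 of 7 (P2ry12) was called within "20- month", where 13.3% of all probes were called. Of 3 alternatives chosen after seeing the data, leaving out replicate 3 of the cross with the spelling as a block called 2 members between the single mutants (0.616% of all probes) and 1 (Aif1) in the cross minus wild type (7.7%). Leaving out 1 array moved Fcgr3 in 3xTgAD minus Polb+/- between -1.04 and -0.76 (adjusted p 0.0414 to 0.217) and Ly86 between -1.02 and -0.83 (0.025 to 0.246).

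The replicate numbers were not taken to pair the arrays, since none of the 6 pairs of groups had every same-number correlation above 0.1. These ran from -0.337 to 0.44. Their mean exceeded that of other pairs for wild type with 3xTgAD (0.22 against -0.0428) and Polb+/- with the cross (0.141 against -0.0425). Only genotype means were removed here, so differences between the spellings remained. Same-number arrays mostly share a spelling in those pairs of groups, and seldom or never in the others. Whether the spelling accounts for the higher means was not tested. With the replicate block, 0 members were called, Fcgr3 in 3xTgAD minus Polb+/- was -0.88 (adjusted p = 0.137), Ly86 was -0.89 (0.18), and 29 probes were called against 46 without it. With 3xTgAD replicates 2 and 5 averaged 5 probes were called there, and without replicates 4 and 6 the count was 225. Counts over all probes depended on the arrays used. Over all alternatives they ran from 0 to 65 in 3xTgAD minus wild type (0 as reported), 0 to 16 in Polb+/- minus wild type (0), 0 to 1983 in the cross minus wild type (1), 0 to 751 in the cross minus 3xTgAD (0), 0 to 1583 in the cross minus Polb+/- (2), 0 to 225 in 3xTgAD minus Polb+/- (46) and 0 to 148 in the interaction (0).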

Other observations

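Sall1, a transcription factor of microglial identity, had its highest mean in 3xTgAD/Polb+/-, at 7.75, against 7.43 in 3xTgAD, 7.35 in wild type and 7.30 in Polb+/-. Golm1, a Golgi membrane protein listed with the homeostatic genes, averaged 9.88 in the cross and 9.55 in wild type, a difference of 0.34 (SE 0.10, limma adjusted p = 0.226). Both genes had their highest mean in the cross, where both Aif1 probes had their lowest, and none of these differences passed the adjusted threshold.

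With genotype adjusted for, both detected Aif1 probes had a difference of 0.35 for "20 month" minus "20- month" arrays. The change was past the threshold for ILMN_2804487 (limma adjusted p = 0.0357) and not for ILMN_1212938 (adjusted p = 0.0531). P2ry12 went the other way, at -0.43 (adjusted p = 0.0557).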
